A study of Mus musculus with 2 samples.

Results

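Type I interferon stimulated antiviral genes are transcripts that most cells raise when interferon-alpha or interferon-beta binds its receptor, and 36 such mouse genes were followed here in regulatory T cells (Tregs). The members were the probe sets to which the platform annotation gave exactly 1 gene, that gene being 1 of the 36. There were 56 such probe sets among 45037 on the array, of which 34945 had a single gene name. They covered 34 of the 36 genes; Isg15 and Ifi44 were without a singly named probe set and have no value here, and Rigi is listed in the annotation as Ddx58. The measurement was 1 Affymetrix array for each of 2 genotypes: DNR mice, whose TGF-beta receptor II is a dominant negative form, and wild-type (WT) mice. Both groups were C57BL/6, 10 weeks old and naive, and their CD4+Foxp3+ cells had been taken from the spleen on a cell sorter. The sorting text is the same for both samples and names DNR mice in each. The sources used here do not name the promoter of the DNR transgene, how many mice were pooled for an RNA, or the reporter or stain by which Foxp3 was seen.

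Interferon-alpha and interferon-beta bind a receptor made of the Ifnar1 and Ifnar2 chains. The attached kinases Jak1 and Tyk2 phosphorylate STAT proteins, which join Irf9 and bind the interferon-stimulated response element (ISRE) of target promoters. Interferon-gamma uses another receptor, and many promoters that answer it carry the gamma-activated sequence (GAS). Many antiviral genes carry an ISRE, some carry both elements, and T cells, Tregs included, have both receptors. TGF-beta signals through SMAD proteins instead, and a dominant negative receptor II weakens that signal in the cells that express it.

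The promoters of 27 of the 36 genes were present in a RefSeq table (build GRCm38.p6), each as a window of 300 bases from 250 before to 50 after an annotated start. An ISRE core, written as GAAA, then any 2 bases, then GAAA again, and searched on both strands, was found in 11 of the 27 genes (40.7%). It was held by 1079 of all 27025 genes (3.99%). The genes with a match were Bst2, Eif2ak2, Ifih1, Ifit1, Ifit3, Isg15, Oas1a, Oas3, Rigi, Rsad2 and Trim30a. A GAS, TTCNNNGAA on either strand, was found in 8 of the 27 (29.6%), namely Adar, Bst2, Eif2ak2, Ifi35, Ifit2, Irf1, Isg20 and Oas1a, against 9.55% of all genes. In Bst2 a GAS and an ISRE core overlapped. Of all 32851 windows 3.44% held the ISRE core and 8.30% the GAS. These are matches of letters and not measured binding.

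Windows of 5 genes are shown, 5′ to 3′ on the strand of the gene, with the bases of each ISRE core match in capitals. Ifit3 and Sp100 are shown because they had the largest lower ratios of DNR over WT among members with both signals above the floor given below. Zbp1, with the largest higher ratio, was to be shown too but had no window. Isg15 and Irf7 were named in the plan, although Isg15 has no value here. Ifit1 was added after the values were seen. It is of the same gene cluster as Ifit3, with a pair of cores in each and ratios on opposite sides of 0. Isg15 has a run of overlapping cores, and Sp100 and Irf7 have no match in the window. The windows lie at chr19:34583279-34583578, plus strand (Ifit3), chr19:34640639-34640938, plus strand (Ifit1), chr4:156200769-156201068, minus strand (Isg15), chr1:85649738-85650037, plus strand (Sp100, the first of its 2 windows), and chr7:141266375-141266674, minus strand (Irf7).
Ifit3: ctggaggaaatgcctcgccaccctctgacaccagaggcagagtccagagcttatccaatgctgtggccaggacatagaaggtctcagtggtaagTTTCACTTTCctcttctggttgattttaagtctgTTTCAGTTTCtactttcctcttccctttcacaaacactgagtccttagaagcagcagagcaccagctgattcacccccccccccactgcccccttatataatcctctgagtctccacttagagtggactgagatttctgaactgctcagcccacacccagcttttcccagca
Ifit1: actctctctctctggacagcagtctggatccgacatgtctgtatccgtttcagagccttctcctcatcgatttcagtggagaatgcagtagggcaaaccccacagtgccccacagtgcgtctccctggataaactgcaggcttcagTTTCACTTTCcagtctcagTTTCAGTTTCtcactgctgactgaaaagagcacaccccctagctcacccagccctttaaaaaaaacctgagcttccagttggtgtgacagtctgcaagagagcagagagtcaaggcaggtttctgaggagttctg
Isg15: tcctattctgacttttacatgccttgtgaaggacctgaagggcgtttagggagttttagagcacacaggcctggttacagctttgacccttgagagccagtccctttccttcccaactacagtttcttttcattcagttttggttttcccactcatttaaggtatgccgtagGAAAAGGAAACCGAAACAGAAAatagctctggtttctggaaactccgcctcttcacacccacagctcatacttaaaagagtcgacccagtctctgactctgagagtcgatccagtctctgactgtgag
Sp100: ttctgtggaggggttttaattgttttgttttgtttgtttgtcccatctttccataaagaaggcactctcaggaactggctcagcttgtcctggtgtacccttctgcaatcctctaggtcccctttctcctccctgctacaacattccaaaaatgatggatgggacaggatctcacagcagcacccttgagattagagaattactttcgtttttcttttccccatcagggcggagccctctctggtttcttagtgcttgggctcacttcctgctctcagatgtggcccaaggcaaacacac
Irf7: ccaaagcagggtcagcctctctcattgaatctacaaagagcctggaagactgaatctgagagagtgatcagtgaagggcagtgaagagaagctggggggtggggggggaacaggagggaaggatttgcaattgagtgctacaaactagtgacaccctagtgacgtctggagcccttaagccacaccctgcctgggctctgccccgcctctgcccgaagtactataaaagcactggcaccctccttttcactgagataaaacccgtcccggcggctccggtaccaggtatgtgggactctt

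The cores of Ifit3 began 156 and 122 bases before the annotated start and those of Ifit1 104 and 85 bases before it, in both genes on the strand opposite to the gene. The 3 overlapping cores of Isg15 began 78, 72 and 66 bases before the start, on the strand of the gene. Oas1a had a pair of cores 20 and 14 bases before its start and a GAS 98 bases before it. Irf1, whose window had no core, had a GAS 90 bases before its start.

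**Figure D1:**
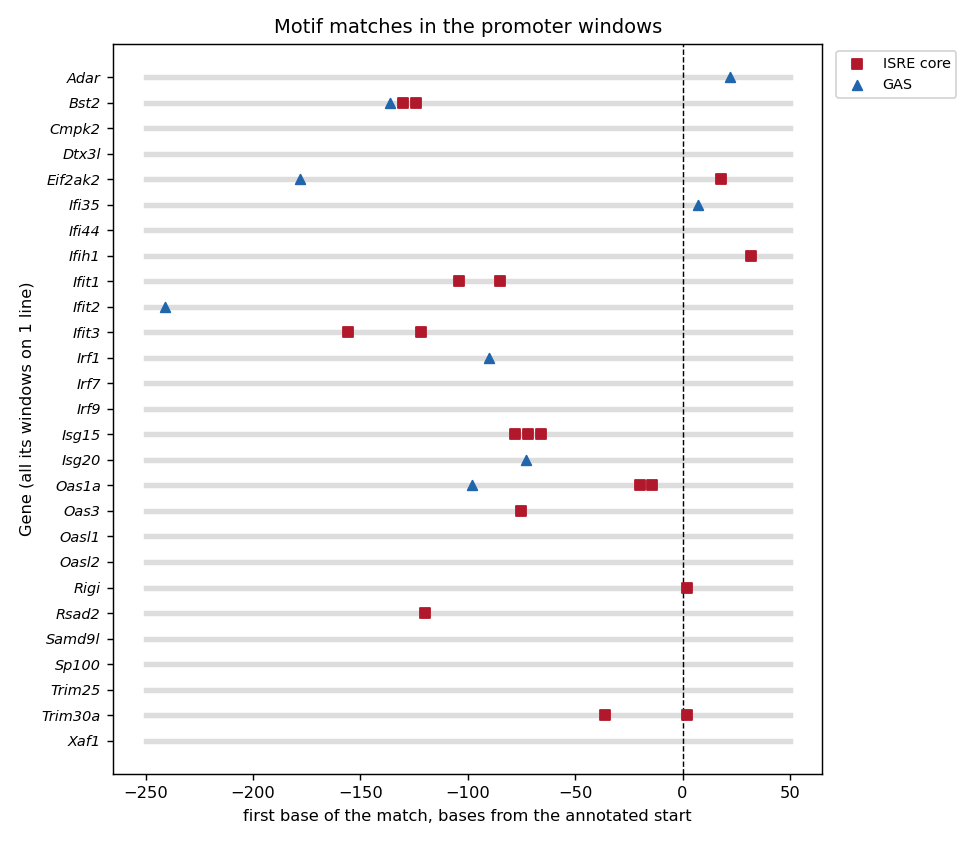
Matches of the ISRE core (squares) and the GAS (triangles) in the promoter windows of 27 genes, by the distance of the match's first base from the annotated start in bases (0 is the start). In Bst2, Ifit1, Ifit3, Isg15, Oas1a, Oas3 and Rsad2 every core lies before the start, and in Eif2ak2, Ifih1 and Rigi it lies after it.

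Values are the deposited MAS5 signal intensities on a linear scale, and both arrays had the same trimmed mean. The median signal of all probe sets was 110.9 for DNR and 91.0 for WT. The higher of these, 110.9, served as a floor to which lower signals were raised before a ratio was taken, and 22518 probe sets exceeded it in DNR Tregs and 20367 in WT Tregs. All 18 hybridisation spike-in sets had a higher DNR signal (median 1.95-fold). With the same trimmed mean on both arrays, each ratio is relative to the array as a whole. A shift shared by all genes would not show. A gene was represented by its brightest probe set and called measured if that set exceeded the floor on either array. With 1 array per genotype there is no replicate and no test, so each difference is between these RNA samples. The visible error is how far 2 probe sets of 1 gene disagree. Over 3968 genes this gave each probe set's log2 ratio a robust SD of 0.36. It was 0.51 where the dimmer of the pair compared was under 4 times the floor, 0.33 from 4 to 16 times, and 0.22 above that. It holds no variation between mice, sorts or hybridisations. Fewer cells with a transcript and less transcript per cell cannot be told apart in such bulk RNA.

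Relative to each array as a whole, the type I interferon stimulated genes had similar signals in DNR and WT Tregs, with members on both sides of 0. Of 33 measured genes, 18 (54.5%) were higher and 15 lower on the DNR array, where 51.4% of all measured genes were higher. The median log2 ratio of DNR over WT was 0.08, a 1.05-fold difference, beside 0.01 over all 11927 measured genes. None of the 33 was at least 2-fold higher, where 4% of all measured genes were, and 1, Ifit3, was at least 2-fold lower, where 2.93% were. Mx2 and Oas3, each with 1 signal below the floor, have only bounds, which fell short of 2-fold. In 26 (83.9%) of the 31 members with both signals above the floor the difference was under 1.5-fold, beside 80.5% of the 9281 such genes. At 1.5-fold, 3 were higher (Zbp1, whose probe sets disagreed in direction, Oasl1 and Oas1a) and 2 lower (Ifit3 and Sp100). Past that size were 12.8% of all measured genes in the higher and 9.85% in the lower direction. The shares of all measured genes include bounds, 1813 above the floor in DNR Tregs only and 833 in WT Tregs only. Of the 9281 genes above it on both arrays 883 were at least 1.5-fold higher and 930 lower. At 2-fold these were 283 and 258. By sign 54.8% of the 31 members were higher, beside 46.5% of the 9281. The median of the 31 was 0.13, beside -0.03 over the 9281. For 24 of the 31 the log2 ratio was smaller than 2 robust SDs of probe sets in the same range of signal, and the other 7 were Ifit3, Sp100, Usp18, Zbp1, Oas1a, Parp14 and Xaf1. Against the pooled 0.36 only Ifit3, Sp100 and Zbp1 were beyond 2 SDs. The share of all genes beyond either limit was not computed, so whether these members stand out is unknown.

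**Figure D2:**
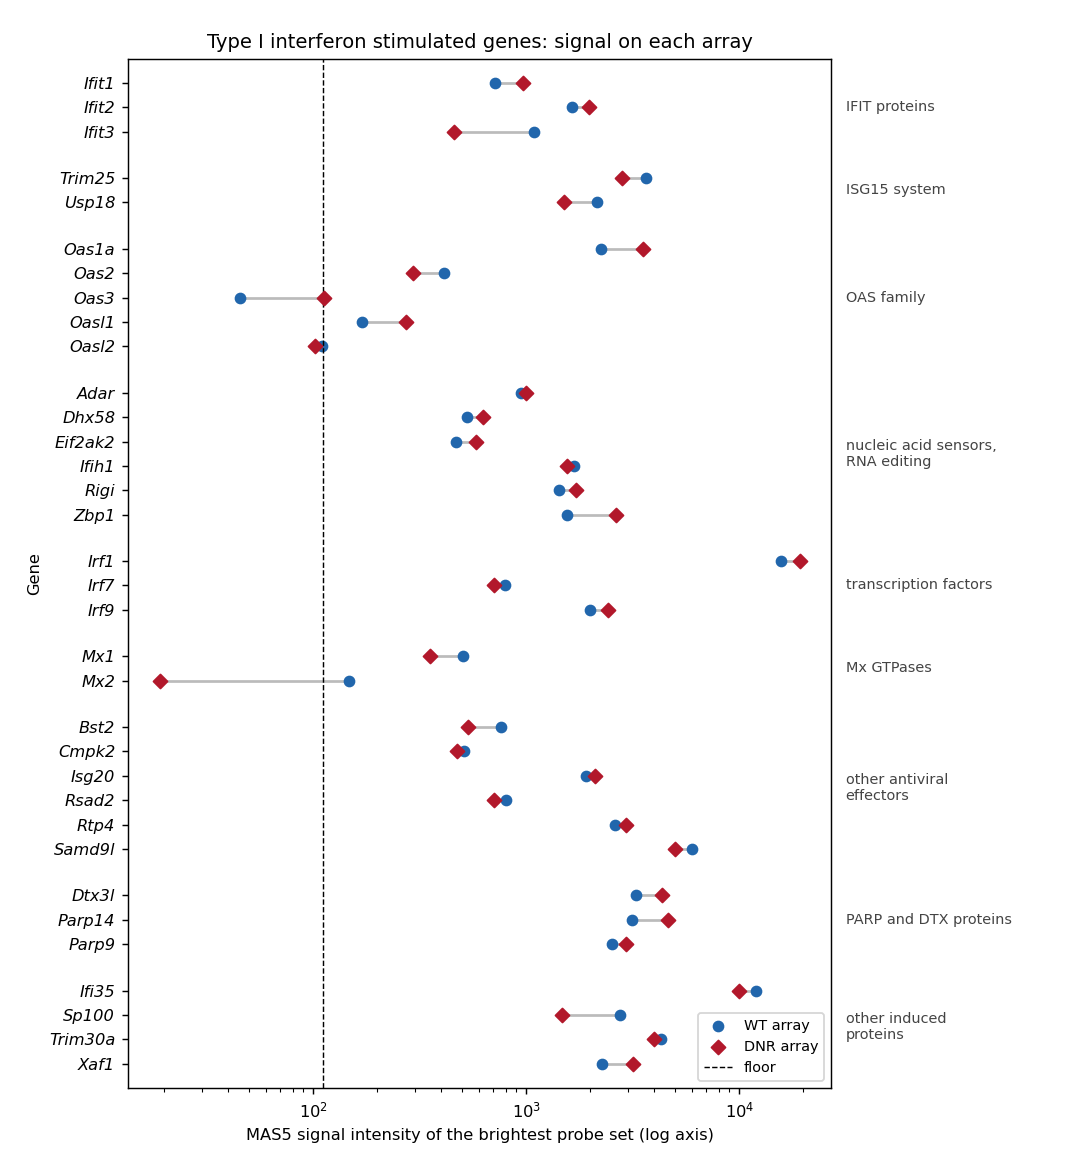
MAS5 signal of the brightest probe set of each of 34 genes on the WT array (circles) and the DNR array (diamonds), on a log axis, by role, with the floor of 110.9 as a dashed line. The 2 signals of most genes lie close together; Ifit3 (459 on the DNR array, 1083 on the WT array) has the widest gap of those above the floor on both. Levels of different genes cannot be set against each other.

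The IFIT genes encode proteins that bind foreign RNA lacking the marks of the cell's own messages and hinder its translation. Ifit1 had a signal of 962 (DNR) and 711 (WT), a log2 ratio of 0.43. Ifit2 had 1969 and 1645, a log2 ratio of 0.26. Ifit3, another member of the family, went the other way, with 459 against 1083, and was 2.36-fold lower in DNR Tregs (log2 ratio -1.24). It stood between -1.24 and -1.20 under every alternative setting. Each of the 3 genes has a single probe set, so no other set checks these values. Ifit3b, a near-identical copy of Ifit3, was without a singly named probe set, and a contribution of its transcripts to the Ifit3 signal was not tested. Ifit1bl1, a relative in the same cluster, had 3721 and 4300, a log2 ratio of -0.21. Ifit2 and Ifit3 are direct neighbours among protein-coding genes, and only Ifit3 of these was lower. The promoters of Ifit1 and Ifit3 printed above both hold ISRE cores.

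Isg15 is a ubiquitin-like protein that is attached to other proteins, and of its system Usp18 and Trim25 could be measured. Usp18, the protease that removes Isg15 and also dampens signalling at Ifnar2, gave signals of 1502 (DNR) and 2144 (WT), 1.43-fold lower. Trim25, a ubiquitin ligase that activates Rigi and can attach Isg15, had 2816 and 3663, a log2 ratio of -0.38. A second Trim25 probe set had 1253 and 2130, a log2 ratio of -0.77, and 1 more was above the floor in WT Tregs only (128). Both genes were thus lower in DNR Tregs on each of their probe sets above the floor, by less than 2-fold. Ube2l6, an enzyme that conjugates Isg15, is in another of the lists described below and had 220 against 127, a log2 ratio of 0.79 near the floor. Uba7 and Herc6, enzymes of the same conjugation in that list, had log2 ratios of -0.10 each. Their other sets were at 0.40 and 0.23 for Uba7 and at -1.02, 0.12 and 0.98 for Herc6.

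The oligoadenylate synthetases sense double-stranded RNA and, through a small messenger molecule, activate an RNase that cuts RNA. Of 5 genes of the family 4 were measured, 3 of them higher in DNR Tregs. Oas1a gave signals of 3546 (DNR) and 2247 (WT), 1.58-fold higher. Its near-identical copy Oas1g was without a singly named probe set, and its part in this signal was not tested. Oasl1, a family member without the enzyme activity that limits translation of Irf7, had 272 and 170, 1.60-fold higher at a signal near the floor. Oas2 had 293 and 410, 1.40-fold lower. Oas3 had 112 on the DNR array, just above the floor, and was below it on the WT array (45.3), so the size of its difference is unknown. Oasl2 was below the floor on both arrays, at 102 and 110. The family thus had no common direction.

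The sensors detect viral nucleic acid in the cytosol. Rigi and Ifih1 (MDA5) are the RNA helicases that start interferon production, and Dhx58 (LGP2) modulates them. Rigi gave signals of 1716 (DNR) and 1432 (WT), a log2 ratio of 0.26, while a second probe set had 442 and 499, a log2 ratio of -0.17, and another was above the floor in DNR Tregs only (167, a log2 ratio of at least 0.59). Ifih1 had 1547 and 1685, a log2 ratio of -0.12. Dhx58 had 628 and 527, a log2 ratio of 0.25. On their brightest sets none of these helicases differed by more than 1 robust SD of their range of signal. Eif2ak2 (PKR), a kinase that halts translation when it meets double-stranded RNA, had 582 and 466, a log2 ratio of 0.32. Adar, which edits adenosine in double-stranded RNA and so keeps the cell's own RNA from being sensed, had 1000 and 949, a log2 ratio of 0.08. A further Adar probe set had 275 and 419, a log2 ratio of -0.61.

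Zbp1, a sensor of nucleic acid in the Z form that can start necroptosis, had the largest higher ratio of the members above the floor on both arrays. Its brightest probe set had 2646 (DNR) and 1557 (WT), 1.70-fold higher (log2 ratio 0.77). The other set had 372 and 646, a log2 ratio of -0.80. The 2 probe sets of Zbp1 thus disagreed in direction by more than any other member's, and their median was -0.02. No direction can be given for this gene.

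The transcription factors of the set carry the interferon signal to the promoters. Irf9, the DNA-binding partner of STAT proteins in the type I response, gave signals of 2412 (DNR) and 1988 (WT), a log2 ratio of 0.28. Irf1, which is induced strongly by interferon-gamma and is also expressed in resting T cells, had 19179 and 15724, a log2 ratio of 0.29. Irf7, the factor that amplifies the production of type I interferon, had 707 and 796, a log2 ratio of -0.17. Irf7 was within 1 robust SD of its range of signal, and Irf1 and Irf9, at higher signals, were between 1 and 2.

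The Mx proteins are GTPases that trap viral components. Both were lower in DNR Tregs: Mx1 had 354 against 506 (1.43-fold lower), and Mx2 was above the floor in WT Tregs alone (147, at least 1.33-fold lower). The Mx2 signal on the DNR array was 19.1, and without a floor its log2 ratio was -2.95. C57BL/6 mice are known to carry defective alleles of Mx1, so the transcript level says nothing about active protein.

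Of 6 other effectors, 2 were higher and 4 lower, none by 1.5-fold. Rsad2 (viperin), which makes a chain-terminating nucleotide, had 709 (DNR) and 803 (WT), and a second probe set had 300 and 378, with log2 ratios of -0.18 and -0.34. Cmpk2, a mitochondrial nucleotide kinase and the direct neighbour of Rsad2, had 476 and 510, a log2 ratio of -0.10, while its other set was above the floor in DNR Tregs only (125). The 2 genes had log2 ratios of the same sign with their brightest probe sets. Bst2 (tetherin), which holds budding virus at the cell surface, had 531 and 761, 1.43-fold lower. Samd9l, which restricts translation, had 4983 and 6016, a log2 ratio of -0.27. Isg20, an RNA exonuclease, had 2094 and 1909, a log2 ratio of 0.13, and Rtp4, a chaperone of receptors, had 2931 and 2608, a log2 ratio of 0.17, while its other set was above the floor in WT Tregs only (120.1).

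Parp9, Parp14 and Dtx3l were all higher in DNR Tregs. Parp9 and Dtx3l form a complex that joins ADP-ribosylation to ubiquitin transfer, and Parp14 is an ADP-ribosyltransferase. Parp14 gave signals of 4620 (DNR) and 3129 (WT), 1.48-fold higher, and its second probe set had 303 and 165, a log2 ratio of 0.88. Dtx3l had 4348 and 3293, 1.32-fold higher, and 3549 and 3379 on its second probe set, a log2 ratio of 0.07. Parp9 had 2928 and 2540, a log2 ratio of 0.21. The 3 genes lie next to each other in the order Parp14, Dtx3l, Parp9, and every probe set of theirs had a higher signal on the DNR array, by less than 2-fold. Their lowest ratios under any alternative setting were 0.56, 0.24 and 0.21.

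Of the remaining proteins, Sp100, a component of PML nuclear bodies, had the largest lower ratio after Ifit3 of the members above the floor on both arrays. Its signal was 1471 (DNR) and 2755 (WT), 1.87-fold lower (log2 ratio -0.91), and a second probe set had 950 and 1170, a log2 ratio of -0.30. The direction was therefore shared by both sets and the size was not. Ifi35, a partner of the interferon-inducible protein Nmi, had 10021 and 12043, a log2 ratio of -0.27, and its other probe sets ranged from -0.47 to -0.27. Trim30a, a TRIM protein that restrains inflammatory signalling, had 3969 and 4286, a log2 ratio of -0.11, and 0.00 on its second probe set. Xaf1, which favours apoptosis, had 3170 and 2264, 1.40-fold higher, with 0.55 on its second probe set.

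**Figure D3:**
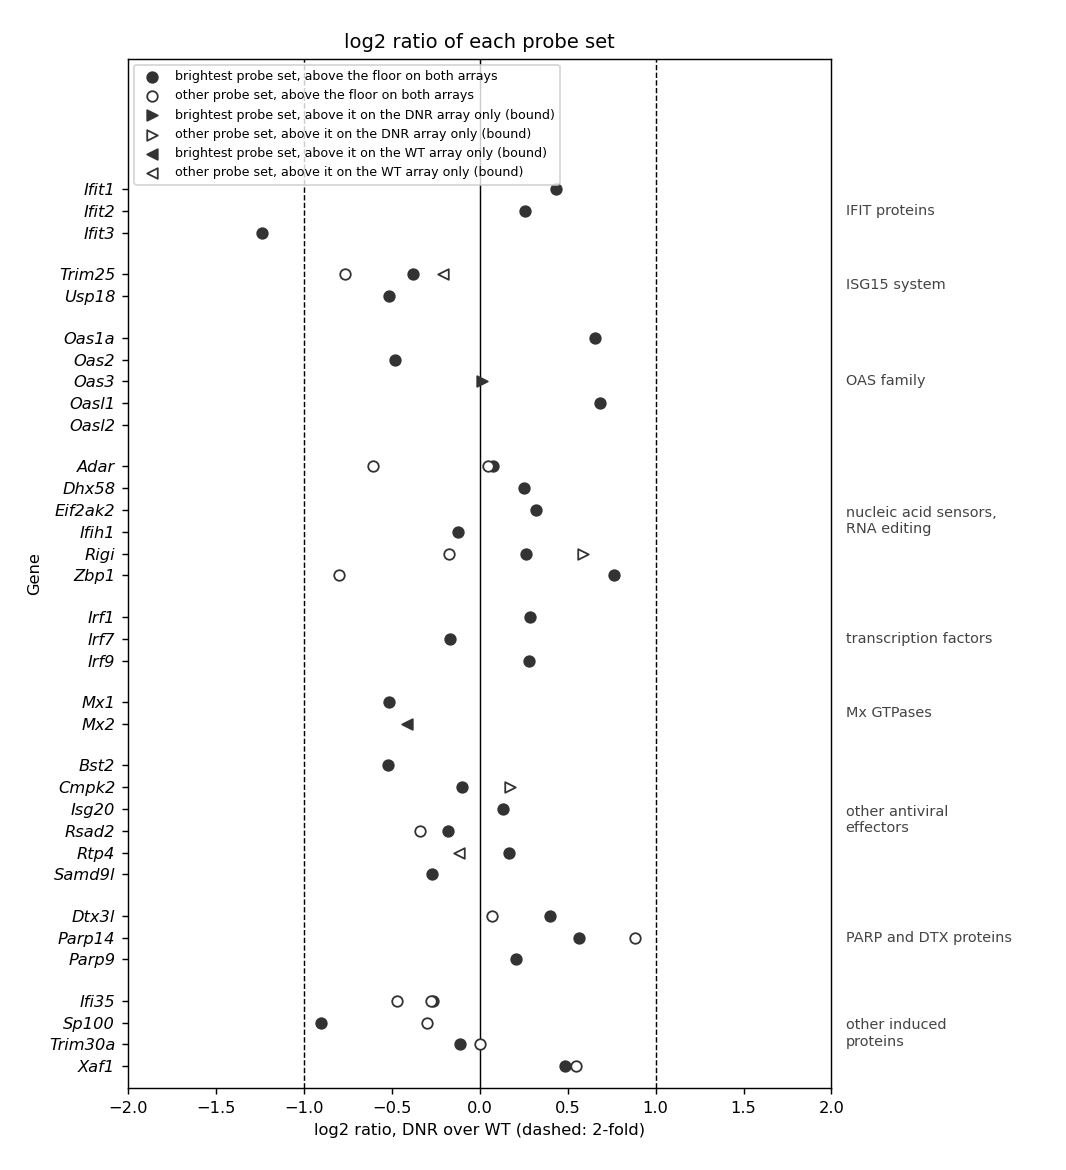
The log2 ratio of DNR over WT for each probe set above the floor on at least 1 array, by gene and role; filled symbols are the brightest set of a gene, open symbols its other sets, and sideways triangles are bounds. Only Ifit3 (-1.24) lies outside the dashed lines of 2-fold, and the sets of Zbp1 lie at 0.77 and -0.80.

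Of the 33 measured members, 11 had 2 or more probe sets that exceeded the floor on both arrays. In 7 of the 11 all such sets had a ratio of the same sign, and in 4 (Adar, Rigi, Trim30a and Zbp1) they did not. Over all genes with at least 2 such sets the brightest pair had the same sign in 58.3%. By that different measure Adar agreed too, its brightest pair being at 0.08 and 0.05. The sign of the log2 ratio was the same under each alternative setting that gave a value for 31 of the 33. The exceptions were Cmpk2 and Zbp1. For a gene with a single probe set, the floors and the choice of sets could not turn the sign. The rescaling was a log2 shift of only -0.01. Adar, Rigi and Trim30a kept their sign although their own sets disagreed. The count of 31 was thus largely fixed by the settings and says little about how secure a direction is. All 7 settings gave a value for 23 genes and 6 settings for the other 10.

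**Figure D4:**
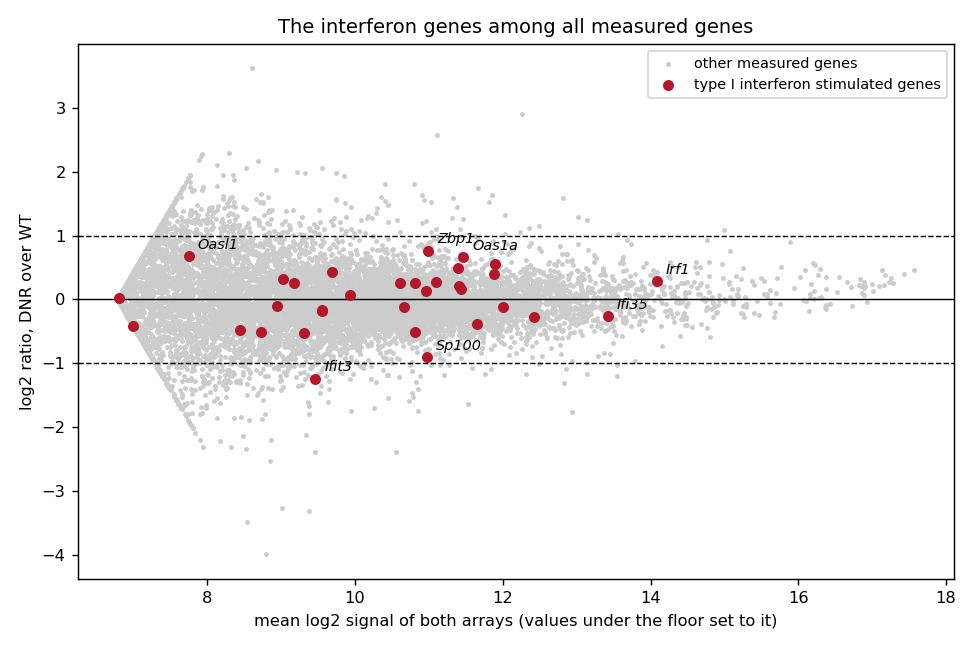
The log2 ratio of DNR over WT against the mean log2 signal for all 11927 measured genes, with the 33 measured type I interferon stimulated genes in red. The members lie on both sides of 0 within the cloud of other genes, with Ifit3 (-1.24) the only one past the dashed 2-fold lines.

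The presence of an ISRE core in the promoter window did not go with 1 direction. Of the 10 measured genes with a core 5 were higher and 5 lower in DNR Tregs (median log2 ratio -0.05), and of the 14 measured genes whose windows had none 8 were higher and 6 lower (median 0.10). Among the 8 measured genes with a GAS 6 were higher, with a median of 0.20, and among the 16 without one 7 were higher, with a median of -0.11. These groups are small and no test was made.

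Genes around the pathway were described with lists chosen by function. Other type I interferon inducible genes also lay on both sides of 0: of 55 measured, 32 were higher and 23 lower, with a median log2 ratio of 0.10. At least 2-fold higher were 4, beside 4% of all measured genes, and at least 2-fold lower 2, beside 2.93%. Gm4951, a predicted GTPase gene, had 751 (DNR) and 181 (WT), 4.15-fold higher. Trim12c, a TRIM gene, had 1464 and 499, 2.93-fold higher, and its other set was above the floor in DNR Tregs only (196, at least 1.77-fold higher). Lgals9, which encodes galectin-9, had 187 and 473, 2.53-fold lower. Slfn1, a Schlafen gene, had 214 and 527, 2.46-fold lower, but its other set went the opposite way, above the floor in DNR Tregs only (132). These 4 were the largest differences of that list where both signals exceeded the floor, and Gm4951 and Lgals9 each rest on 1 probe set. Cd274, which encodes PD-L1, had 3929 and 1633, 2.41-fold higher, and Oas1b was above the floor in DNR Tregs only (242, at least 2.18-fold higher).

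Interferon-gamma inducible genes lay mostly on the higher side on the same arrays. Of 22 measured, 21 were higher in DNR Tregs and 1 lower, with a median log2 ratio of 0.53 (1.45-fold), and the list's quartiles were 0.32 and 0.80. Of all measured genes 51.4% were higher and 4% at least 2-fold higher. For the type I interferon stimulated genes the quartiles were -0.27 and 0.29. At least 2-fold higher were Iigp1, an immunity-related GTPase (6546 against 2111, 3.10-fold, and 2.98-fold on its other set), Cxcl10, a chemokine ligand of Cxcr3 (4464 against 1484, 3.01-fold), and Gbp2, a guanylate-binding protein (7690 against 3554, 2.16-fold, and 1.58-fold on its other set). The difference between the lists has no test, since each array is a single sample, and the lists were chosen with earlier results of these data known. Many genes respond to both interferons, Irf1 and Cxcl10 among them, so the lists do not separate the cytokines.

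**Figure D5:**
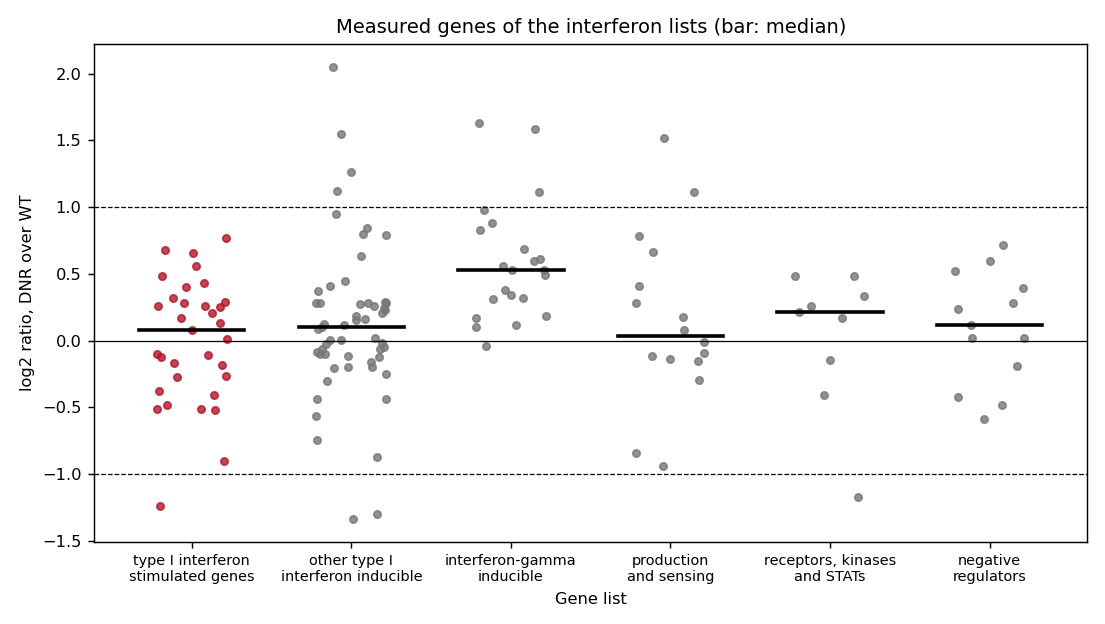
The log2 ratio of DNR over WT of each measured gene (points) in the type I interferon stimulated set (red) and 5 other interferon lists (grey), with the median of each as a bar and 2-fold as dashed lines. The interferon-gamma list has its median at 0.53 and the type I set at 0.08.

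Of genes that produce or sense upstream of interferon, 16 were measured, 8 higher and 8 lower, with a median of 0.03. Ifng, the gene of interferon-gamma, had 3524 (DNR) and 1227 (WT), 2.87-fold higher, and Cgas, the sensor of cytosolic DNA, had 554 and 257, 2.16-fold higher, with a second probe set at 0.92. Ifnb1, Ifna2 and Ifna4 were below the floor on both arrays, and Ifna1 had 123 on the WT array and 21.1 on the DNR array. Transcripts of these type I interferon genes were thus below or near the floor in both samples, and other genes of the family were not examined.

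Of the receptors, kinases and STATs 9 genes were measured, 6 higher and 3 lower, with a median of 0.22. Without the sets that can bind several transcripts 8 genes were left, 4 higher and 4 lower, with a median of 0.05. Ifngr2, the signalling chain of the interferon-gamma receptor, was the only one past 2-fold, with 437 against 988 (2.26-fold lower), but its second probe set was at -0.21. Ifnar1 had 2411 and 2661 (log2 ratio -0.14, with 0.23 on its other set) and Ifnar2 2049 and 1468 (0.48, with other sets at 0.20 and -0.30). Stat2 had 180 and 143. Of 13 measured negative regulators 9 were higher and 4 lower, none by 2-fold, with a median of 0.11 that turned to -0.09 when the median of all sets of a gene was used. The brightest of these were Tnfaip3, an inhibitor of NF-kappaB (80522 and 79340), and Socs3, an inhibitor of cytokine receptors (16219 and 12346). The other sets of both were lower in DNR Tregs, at -0.74 for Tnfaip3 and -0.33 and -0.09 for Socs3.

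The labelled cell type was checked against Treg markers. All 10 marker genes with a probe set were above the floor on both arrays, 6 of them higher and 4 lower in DNR Tregs. Foxp3 had 4550 (DNR) and 3754 (WT), and the brightest were Ctla4 (52119 and 41217), Ikzf2 (23891 and 16696) and Cd3g (19441 and 16858). Lower were Izumo1r (folate receptor 4), the one past 2-fold, with 1734 and 3515 (2.03-fold), Cd4 with 415 and 595, Il2ra with 3969 and 4591, and Cd3e with 4388 and 4668. Interferon stimulated genes are also abundant in myeloid cells, and the macrophage and monocyte markers were lower on the DNR array: of 16 genes with a probe set 12 were measured and 11 of these were lower, with a median log2 ratio of -0.61. At least 2-fold lower were C1qa (330 and 788), C1qc (185 and 386), Vcam1 (478 and 974) and Mrc1 (186 and 377). C1qb was nearly equal (641 and 652), with other sets at 0.03 and -0.01. Csf1r, the brightest of the list, had 1449 and 1799, a log2 ratio of -0.31. Adgre1 and Hmox1 were at -0.12. The signals of the 12 summed to 5277 (DNR) and 7684 (WT), and Cd14, Clec4f, Fcgr1 and Ms4a7 were below the floor on both. Markers of plasmacytoid dendritic cells, which make much type I interferon and carry Bst2, went both ways, with 5 of 7 measured genes higher and a summed signal of 2823 and 2971. Cox6a2 (112, just above the floor, and 312) and Ccr9 (356 and 810.0) were at least 2-fold lower. Klk1 (274, below the floor in WT) was at least 2.47-fold higher, but another of its sets was above the floor in WT Tregs only (111.7). Siglech, which defines that cell type, had 157 and 82.9. The part of such cells in the lower signals of Ifit3, Sp100, Bst2, Usp18 and the Mx genes was not tested. The measured markers of neutrophils (4 genes) had a median of 1.37, those of CD8 T and NK cells (6) 0.50, of dendritic cells (2) 0.23, of B cells (4) 0.10 and of erythroid cells (2) -0.15. Of these, Mmp9 (537 and 184), Ngp (287, below the floor in WT), S100a8 (285, below it in WT) and the cytotoxic gene Nkg7 (1009 and 496) were at least 2-fold higher in DNR Tregs. Of 10 neutrophil genes with a probe set 6 were below the floor on both arrays, and Elane was lower (173 and 238). In the list of CD8 T and NK cells Cd8b1 (171 and 294) and Eomes (360 and 416) were lower.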

How the data were processed

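Total RNA was labelled with biotin and hybridised to 1 array per genotype, per the labels' protocols. The deposited intensity of each probe set is a MAS5 signal, per the submitters' processing notes; MAS5 combines matched and mismatched probes into 1 value. How the authors scaled the arrays is not stated, but with 2% of the values left out at each end both deposited intensity columns had the same mean of 500.0. No genome build is stated either.

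Of 45101 probe sets 64 controls were left out. The log2 ratio of DNR over WT was taken after lower values had been set to the floor, the higher of the arrays' medians (110.9), and a ratio with 1 value under the floor is a bound. Differences were described by a threshold of 2-fold. Every member was named, and of each other list up to 4 genes past 2-fold, or else the 2 brightest. Further genes (Cd274, Oas1b, Ube2l6, Uba7, Herc6, receptors and interferons, the lower Treg markers, other marker genes under 2-fold) were chosen after their values were seen. Of marker lists with none past 2-fold only the median is given. The alternatives were floors at the 40th and 60th percentile or none, the median over a gene's probe sets, leaving out sets ending in _s_at, _x_at or _a_at (which can bind several transcripts), rescaling by the median, quantile normalization, and thresholds of 1.5-fold and 3-fold. The robust SD between probe sets came from the difference of the 2 brightest sets of a gene. Calculations used Python 3.11.15, pandas 2.3.3 and numpy 2.4.6 and were tested on simulated data. Those data held planted differences of 3-fold or more in bright genes, so recovery of smaller differences or of dim genes was not checked. Promoters were read from RefSeq. The members and lists were chosen with earlier results of these data known.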

Additional observations from a re-analysis of the deposited data

How the results depend on the processing

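The counts by direction (18 higher, 15 lower) and the median of the type I interferon stimulated genes kept to within 1.5 times and within the error of the median, respectively, under all 7 alternative settings. The number at least 2-fold higher was 1 and lower 2 without a floor, where Oas3 (1.31) and Mx2 (-2.95) passed; it was 3 and 2 at 1.5-fold, and 0 lower at 3-fold. Over all measured genes the 477 higher and 350 lower became 1026 and 550 under a floor at the 40th percentile, 250 higher under 1 at the 60th, 1637 and 857 without a floor, 1526 and 1175 at 1.5-fold, and 56 and 63 at 3-fold. Among the upstream genes 1 was at least 2-fold lower without a floor. With the median over a gene's probe sets 0 receptor genes and 1 of the other type I interferon inducible genes were at least 2-fold lower, and 7 negative regulators were lower, with a median of -0.0894. Without sets that can bind several transcripts the receptor list's median was 0.0461, that of the negative regulators -0.19 with 5 genes higher, and 1 other type I interferon inducible gene was at least 2-fold lower. Of interferon-gamma inducible genes 2 were lower under the 40th percentile floor and 2 after quantile normalization. The cause of these changes was not tested. No paired analysis was possible because there was 1 array per group. The number of arrays limits the precision, and genes below the floor on 1 array have only bounds.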
